A study of Homo sapiens with 24 samples.

Results

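The AP-1 transcription factors described here are 10 genes, namely FOS, FOSB, FOSL1, FOSL2, JUN, JUNB, JUND, BATF3, MAFF and MAFK, taken by gene symbol from each of 2 count tables. They are 10 of 28008 genes in the table of batch 1 and 10 of 60221 in the table of batch 2, and all 10 had enough counts to be tested in both. The cells were A375, an established human melanoma line, transfected with pcDNA3.1 plasmids that carry a CAG promoter and puromycin resistance and grown for 48 h in medium with 10% serum and 2 µg/mL puromycin. All groups, the controls included, therefore went through transfection and puromycin. In each batch, 3 biological replicates received the vector without insert (empty), and 3 received wild type SLNCR at full length (FL), a long noncoding RNA. Batch 1 added 3 replicates of SLNCR without TFR 1 (ΔTFR1) and 3 without TFR 2 (ΔTFR2), and batch 2 added 3 without TFR 4 (ΔTFR4) and 3 without TFR 5 (ΔTFR5), where TFR stands for a triplex-forming region of the RNA. The comparisons ask which of these genes respond to SLNCR and which responses depend on a TFR.

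AP-1 is a dimer of basic leucine zipper (bZIP) proteins that binds short palindromic DNA sites. JUN proteins pair with themselves or with FOS proteins, whereas FOS proteins need a JUN partner. BATF3 pairs with JUN proteins and lacks the transactivation domains of FOS. The small MAF proteins MAFF and MAFK also lack such a domain and act mostly as partners of other bZIP factors, among them the NRF and BACH proteins. Several members are immediate-early genes, whose transcription rises within minutes of growth factor or stress signals through ERK, JNK and p38 kinases and is then shut off. In melanoma with active BRAF, FOSL1 and JUN are known for their part in ERK output and in invasive, drug-tolerant cell states.

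Depth was 8627449 to 10789211 counts per library in batch 1 and 24810090 to 33063293 in batch 2. The tables were made by different counting methods, so no level was compared between batches. The label calls the cells epithelial. The keratins KRT18 and KRT8 lay at no less than 228 and 59.1 CPM in all libraries, but EPCAM at no more than 0.740 CPM and CDH1, KRT5, KRT14 and KRT19 at no more than 5.85. Of the melanocyte and melanoma markers, MITF, PRAME and SOX10 lay at no less than 55.8, 48.8 and 10.9 CPM. S100B lay at no more than 0.828 CPM, MLANA at no more than 2.99 and the pigment genes TYR, DCT and PMEL at no more than 1.90. SLNCR was raised in all groups that received it: in batch 1 it lay at 18.9, 20.8 and 20.6 CPM with empty vector and at 165, 239.9 and 220.0 with FL. In batch 2 the levels were 30.1, 29.1 and 27.9 CPM with empty vector, 728, 658 and 334 with FL, 515, 498 and 444 with ΔTFR4 and 321, 376 and 192 with ΔTFR5, read from the row of LINC00511, which also holds other transcripts of that locus. FL replicate 3 and ΔTFR5 replicate 3 of batch 2 held the least SLNCR of their groups, and counts of called members in comparisons that involve them are given with and without them. FL libraries of batch 1 also differed from the rest in how counts ran with the GC content of genes: the trend from low to high GC on the log2 scale was -0.50 to -0.14 in FL and 0.015 to 0.28 in the other groups. In batch 2 that trend was -1.23 in FL replicate 1 and -0.11 to 0.29 in the other libraries. All 3 leukocyte markers were also highest in that library, with 93 counts of PTPRC, 19 of CD14 and 10 of CD3E. Their sum was 3.66 CPM there and 0.0311 to 0.239 in the other libraries of batch 2, where CD3E was at 0. FL replicate 1 of batch 2 also held the lowest KRT18, KRT8 and PRAME and the highest MITF, 198 CPM. The epithelial markers summed to 294 CPM there and to 420 to 698 in the other libraries of batch 2. For the melanocyte and melanoma markers the sums were 293 and 203 to 274.

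Levels below are CPM, which are counts scaled to the total of each library times its TMM normalisation factor, given for replicates 1, 2 and 3 in that order. Differences are log2 fold changes ± standard error, with adjusted p from edgeR's quasi-likelihood test and the Benjamini-Hochberg method over all tested genes of a comparison, and a gene rose or fell where the adjusted p was under 0.05. Standard errors and p-values rest on the spread between the 3 replicates per group of this study, estimated over all 4 groups of a batch together. They therefore do not describe the spread of the 2 compared groups alone. In bulk RNA, fewer cells that express a gene and less RNA per cell cannot be told apart.

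Sequence before the start of 3 members is shown first, since it carries motifs that AP-1 or related bZIP dimers are known to bind. JUN, MAFF and JUND had the lowest adjusted p of the members in ΔTFR4 against empty vector. Starts are those of RefSeq on GRCh38.p14, and each line reads 5′ to 3′ along the strand of the gene, with motif matches in capitals. For JUND the 250 bases before the start are given. For JUN and MAFF 26 bases around a match are given, because GENCODE places starts further upstream and 250 and 112 of their 250 bases lie in its untranslated regions.
JUN (chr1:58784098-58784123, minus strand): gccttggggTGACATCAtgggctatt
MAFF (chr22:38201931-38201956, plus strand): ccgggtcggTGACGTCAccgcatgac
JUND (chr19:18281623-18281872, minus strand): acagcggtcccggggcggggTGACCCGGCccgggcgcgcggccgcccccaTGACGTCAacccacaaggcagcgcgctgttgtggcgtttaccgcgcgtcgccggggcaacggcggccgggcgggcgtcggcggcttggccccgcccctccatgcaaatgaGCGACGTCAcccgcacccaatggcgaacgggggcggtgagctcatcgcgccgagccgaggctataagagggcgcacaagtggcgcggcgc
JUN holds TGACATCA at -67 to -60, a variant AP-1 site, where positions count back from the start in RefSeq. MAFF holds the cyclic AMP response element TGACGTCA at -54 to -47, and JUND holds it at -200 to -193. The other capitals in JUND are matches to TGACNNNGC, the core of the antioxidant response element, at -230 to -222, reading forward, and at -90 to -82, on the opposite strand. MAFF holds the same core at -122 to -114 on the opposite strand. No matches to different motifs overlap in these 3 genes.

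Across 35116 RefSeq promoter windows that reach 50 bases past the start, 2.61% hold TGACATCA, 1.85% TGACGTCA, 4.95% the classical AP-1 site TGACTCA, 13.3% TGACNNNGC and 11.5% TATAAA, with both strands searched. Windows were found for 7 of the 10 members (FOS, FOSB, FOSL2, JUN, JUNB, JUND and MAFF). In these, TGACTCA stood in FOSL2 alone, at 4 to 10, and TATAAA stood in FOS at -33 to -28, in FOSB at -30 to -25 and in JUNB at -31 to -26. None of the 7 windows held a CArG box, the site of serum response factor, which 1.29% of all windows hold. The windows begin 250 bases before the start, so a CArG box further upstream would not be seen. MAFF has 2 windows, of which the first listed was used. A match describes letters in a window and not a bound site.

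Compared per kilobase of the principal transcript, FOSL1 was the most abundant member in all 24 libraries. FOSL1, also called FRA1, lay at 305 ± 11.1 CPM per kb (SD, n = 3) with empty vector in batch 1 and at 417 ± 16.8 in batch 2. It made up 63.0 ± 0.972% of the summed CPM per kb of the 10 members in the first case and 66.3 ± 0.372% in the second. With empty vector in batch 1, JUND followed at 57.0 ± 2.30, FOSL2 at 33.1 ± 1.62, JUNB at 25.0 ± 2.82 and FOS at 16.9 ± 1.08 CPM per kb, each beyond the SD of its neighbour. FOSB, JUN and MAFK lay within their spread of each other at 12.8 ± 1.31, 12 ± 1.39 and 11.8 ± 1.27. MAFF at 6.78 ± 0.369 and BATF3 at 3.33 ± 1.40 were lowest. With empty vector in batch 2 the first 4 were again FOSL1, JUND, FOSL2 and JUNB. They were followed by FOS at 12.1 ± 2.83, MAFK at 10.0 ± 1.05, JUN at 9.57 ± 0.567, MAFF at 8.03 ± 1.44, FOSB at 5.71 ± 0.691 and BATF3 at 5.16 ± 0.479 CPM per kb. Within that lower part, the neighbours FOS and MAFK, MAFK and JUN, and FOSB and BATF3 did not differ beyond their SDs. Dividing by the length of all exons joined lowers MAFF and BATF3 most and leaves FOSL1 first.

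The plot of member levels in batch 2 shows all members by library.

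**Figure D1:**
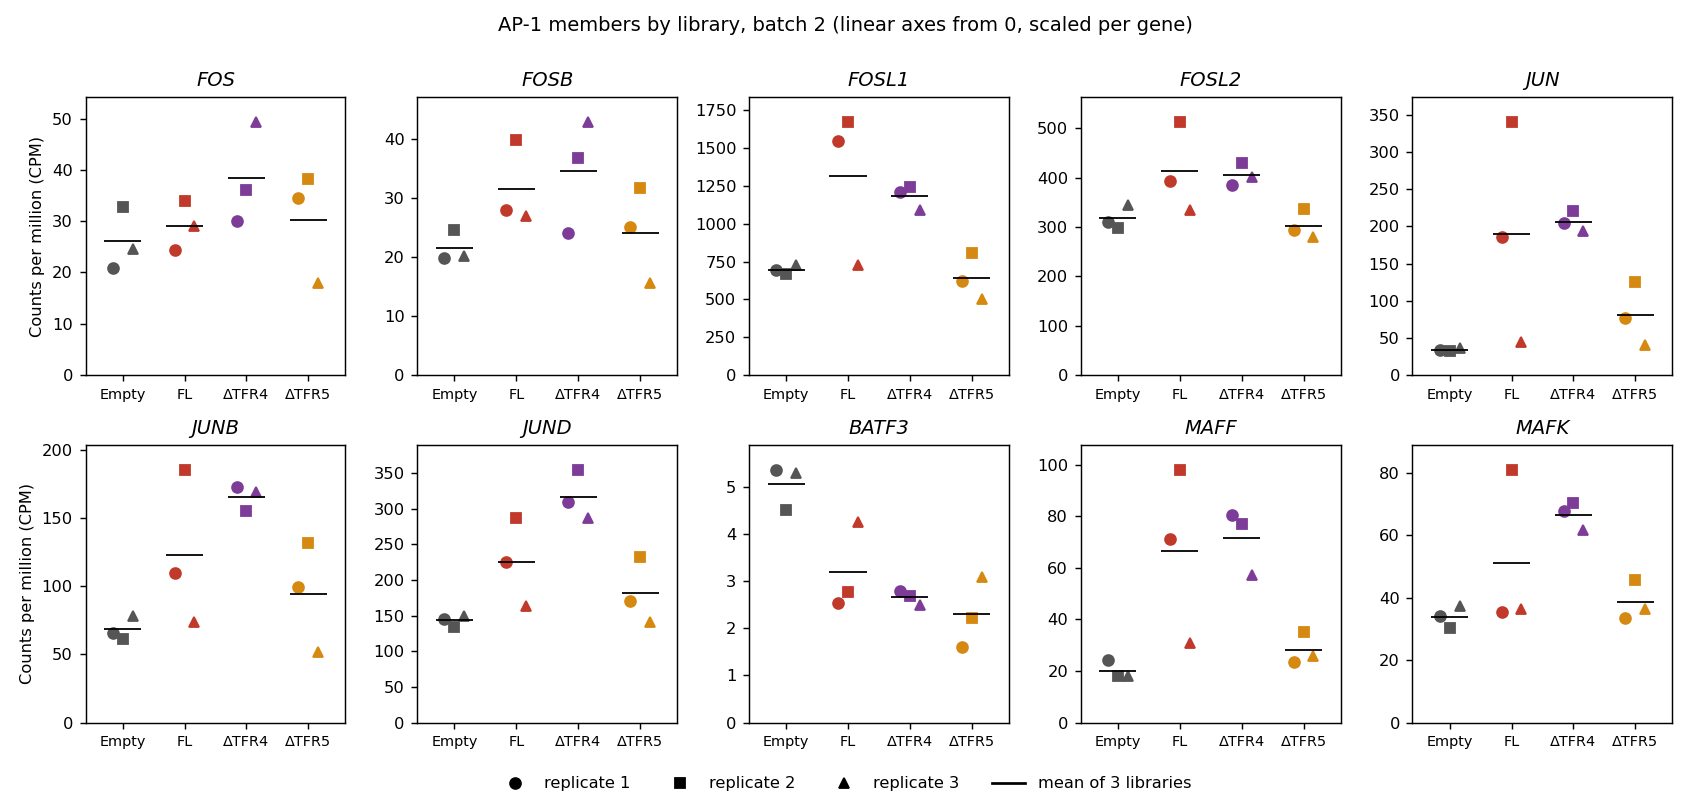
Level of each AP-1 member in CPM (y axis, linear, from 0, scaled per gene) in the 4 groups of batch 2 (x axis); symbols mark replicates 1, 2 and 3 and lines the mean of 3 libraries. ΔTFR4 libraries lie above all empty vector libraries for 7 members and below them for BATF3, and triangles show FL replicate 3 near the empty vector level of JUN (44.6 CPM) and FOSL1 (730 CPM).

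In batch 2, ΔTFR4 gave the most changed members. Against empty vector, 6 members rose (FOSL1, JUN, JUNB, JUND, MAFF and MAFK), 1 fell (BATF3) and 3 did not pass (FOS, FOSB and FOSL2), where 23.9% of all 18763 tested genes passed. Rises took 12.5% of all tested genes and falls 11.4%. The median log2 fold change was 0.87 over the 10 members and 0.017 over all tested genes. Libraries of both groups did not overlap for 7 members on the high side and 1 on the low side. Over all tested genes, groups that do not overlap made up 29.2% on the high side and 27.5% on the low side. The count of 7 called members was 4 without ΔTFR4 replicate 2 (11.9% of all tested genes), 3 without empty replicate 1 (13.9%) and 4 without empty replicate 2 (14.1%). It was 3 with no filter on low counts (9.3%).

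JUN, the main target of JNK, showed the largest of these rises. Its levels were 33.1, 32.3 and 36.1 CPM with empty vector and 205, 220.2 and 194 with ΔTFR4. All ΔTFR4 libraries stood far above all controls, and neither group spread much. The SD was 5.93% of the mean with empty vector, 6.35% with ΔTFR4, 77.8% with FL and 52.6% with ΔTFR5. All 4 groups enter the standard error. The rise was 2.61 ± 0.59, 6.10-fold (adjusted p = 0.0104 by edgeR's test, 0.0511 with no filter on low counts).

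JUND, the JUN protein that most resting cells express, lay at 146, 134 and 149.7 CPM with empty vector and 308, 354 and 286 with ΔTFR4. The groups did not overlap, and the rise was 1.15 ± 0.21 (adjusted p = 0.00252). JUNB, a weaker activator that often opposes JUN in growth control, lay at 65.9, 61.2 and 78.1 and 173, 155 and 169 CPM. It rose by 1.28 ± 0.32 (0.0136 by edgeR's test), again with no overlap. The call of JUNB was lost with no filter (0.10) and without empty replicate 1 (0.0518) or 2 (0.0570).

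Because the 3 JUN genes rose by different amounts, the make-up of the JUN family differed between groups of batch 2. Of the summed CPM per kb of JUN, JUNB and JUND, JUN held 7.73 ± 0.214% (SD, n = 3) with empty vector and 18.3 ± 0.140% with ΔTFR4. The share was 19.6 ± 9.50% with FL, where single libraries ran from 8.96 to 27.3%, and 12.7 ± 2.67% with ΔTFR5. Without replicate 3 the mean was 24.9% with FL and 14.1% with ΔTFR5, over 2 libraries each. JUND held 62.0 ± 1.6% with empty vector and 53.1 ± 2.84% with ΔTFR4. In batch 1 the share of JUN was 12.8 ± 0.604% with empty vector and 11.3 ± 0.967% with FL. These shares were not tested.

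**Figure D2:**
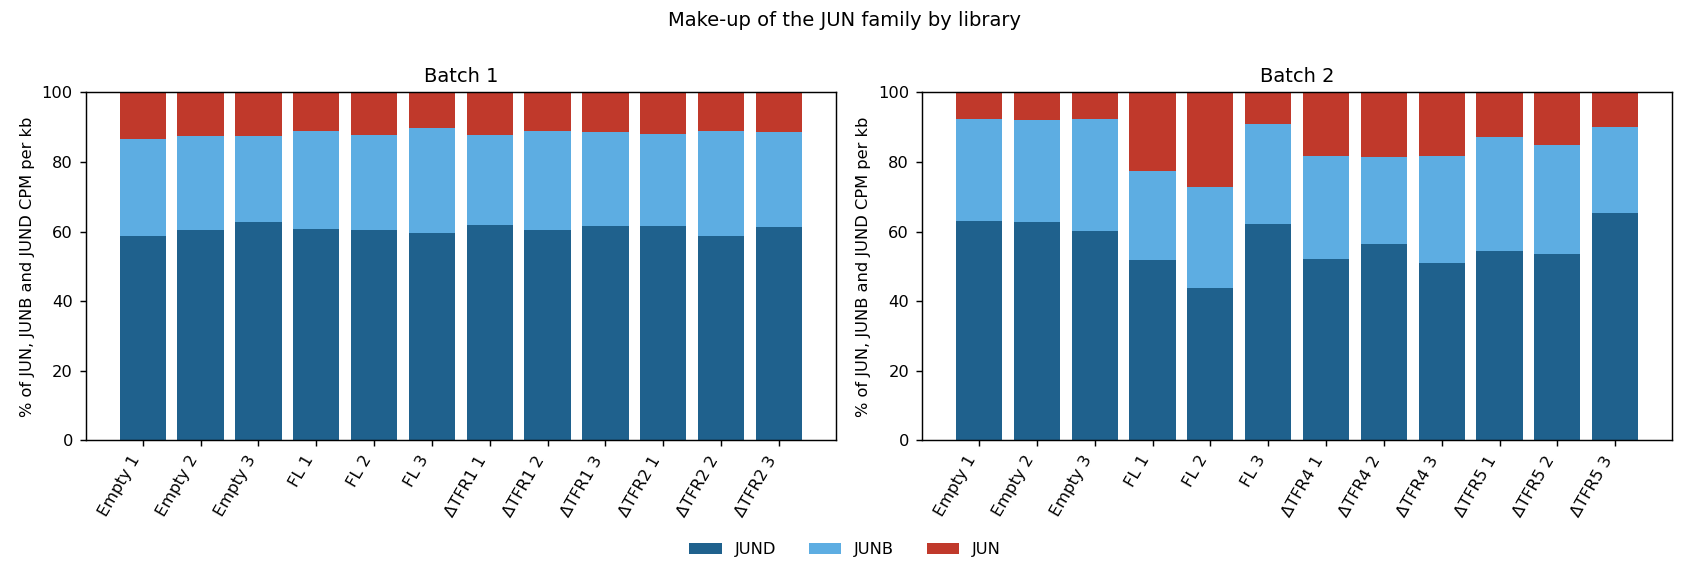
Share of JUN, JUNB and JUND in their summed CPM per kb of principal transcript (y axis, percent, from 0) in each library (x axis; number gives the replicate), batch 1 left and batch 2 right. JUN takes 7.73% on average in the empty vector libraries of batch 2 and 18.3% in those of ΔTFR4, and between 8.96 and 27.3% in FL libraries.

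Among small MAFs, MAFF lay at 24.1, 17.9 and 17.9 CPM with empty vector, 71.3, 97.9 and 30.8 with FL, 80.6, 77.0 and 57.3 with ΔTFR4 and 23.6, 35.2 and 25.7 with ΔTFR5. FL and ΔTFR4 libraries all lay above the controls, whereas ΔTFR5 replicate 1 lay inside their range. MAFF rose by 1.84 ± 0.33 with ΔTFR4, a 3.58-fold difference (adjusted p = 0.00242, edgeR). The rises of MAFF and JUND with ΔTFR4 passed under all alternatives tried for that comparison.

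MAFK, the other small MAF measured, lay at 34.0, 30.1 and 37.2 CPM with empty vector and 67.6, 70.4 and 61.5 with ΔTFR4. Its rise was 0.98 ± 0.26 (adjusted p = 0.0173), lost among others without ΔTFR4 replicate 2 (0.0647). TMEM184A, which overlaps MAFK by 809 bases on the opposite strand, rose with it by 0.76 ± 0.20 (adjusted p = 0.0169), and without a known strand setting the reads of the 2 genes cannot be told apart where they overlap. MAFF took 44.4 ± 4.79% of the summed CPM per kb of MAFF and MAFK with empty vector and 59.0 ± 3.05% with ΔTFR4.

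In the FOS family, FOSL1 was the one member that rose with ΔTFR4. It lay at 695, 669.6 and 726 CPM with empty vector and at 1211, 1242 and 1091 with ΔTFR4, with no overlap, and rose by 0.76 ± 0.25 (adjusted p = 0.0407, edgeR). This call was lost in each fit that left out 1 of the 6 libraries compared, with adjusted p from 0.0730 to 0.117 and log2 values from 0.72 to 0.81. FOS, the founding member, did not pass at 0.56 ± 0.27 (0.152), with 30.0, 36.1 and 49.3 CPM against 20.9, 32.9 and 24.6. Its groups overlapped, as did those of FOSB.

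FOSB gave 0.68 ± 0.26 (adjusted p = 0.0743) with 24.1, 36.8 and 42.9 CPM with ΔTFR4 and 19.9, 24.6 and 20.2 with empty vector. It passed without ΔTFR4 replicate 1 (0.0420) and with DESeq2 (0.0491). FOSL2, also called FRA2, gave 0.35 ± 0.15 (0.0971) although its groups did not overlap, at 385, 430.5 and 401 CPM against 309.8, 298 and 344.

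BATF3, known for its part in dendritic cell development and as a JUN partner, moved the other way. Levels were 5.35, 4.51 and 5.30 CPM with empty vector, 2.52, 2.77 and 4.25 with FL, 2.78, 2.68 and 2.49 with ΔTFR4 and 1.59, 2.21 and 3.09 with ΔTFR5. All libraries with SLNCR lay below all controls. BATF3 fell by 0.93 ± 0.26 with ΔTFR4 (adjusted p = 0.0218) and by 1.14 ± 0.27 with ΔTFR5 (0.0184), and gave -0.67 ± 0.26 with FL (0.134, edgeR). The ΔTFR4 call was lost without any 1 of its 3 libraries or without empty replicate 1 or 3, with adjusted p up to 0.0754. The ΔTFR5 call was lost without ΔTFR5 replicate 1 or 2 or empty replicate 1 or 3, with adjusted p up to 0.0911.

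The plot of log2 fold changes sets the members side by side against empty vector. The 3 comparisons of batch 2 share the same control libraries.

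**Figure D3:**
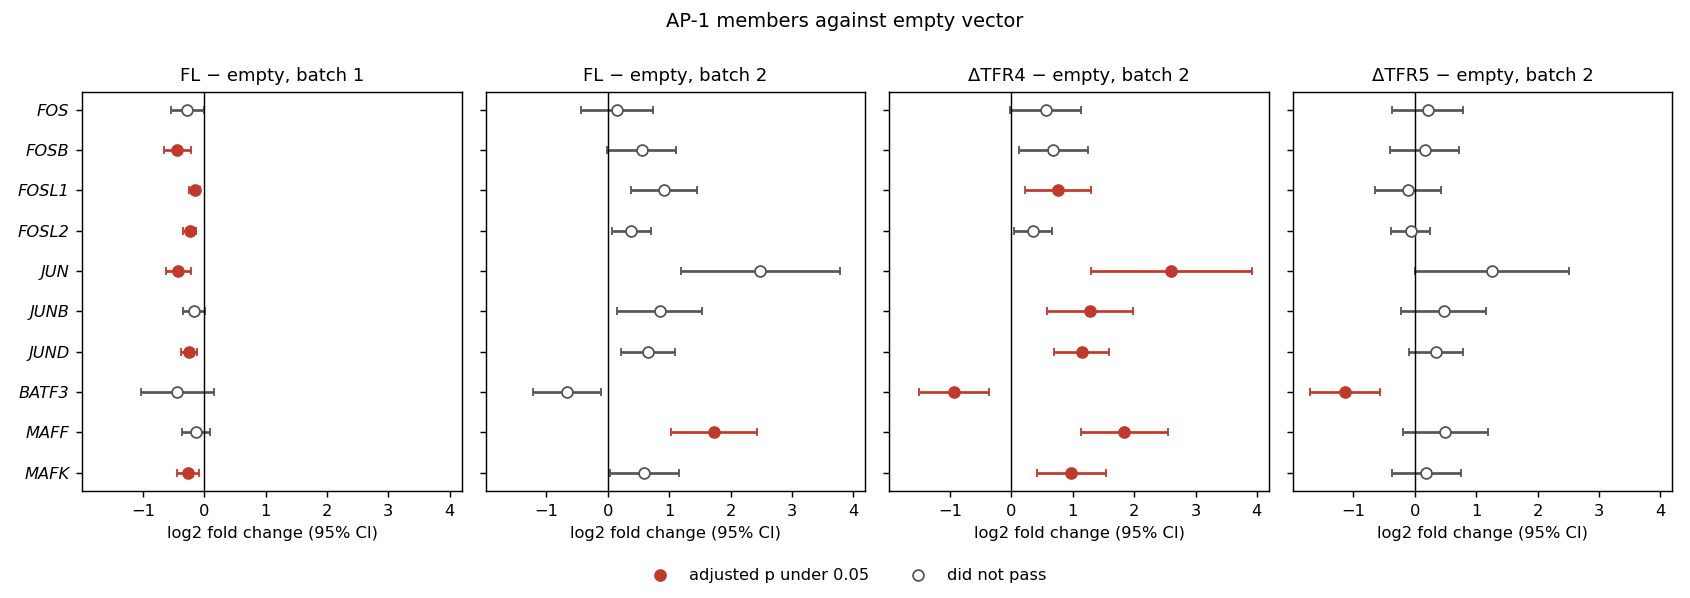
Log2 fold change against empty vector (x axis) of each AP-1 member (y axis) for FL in batch 1 and for FL, ΔTFR4 and ΔTFR5 in batch 2; bars are 95% confidence intervals and filled red points passed at an adjusted p under 0.05. In batch 1 the points that passed lie between -0.44 and -0.16, and with ΔTFR4 those that rose lie between 0.76 and 2.61.

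With FL against empty vector in batch 2, 1 member rose, MAFF, where 1.16% of all tested genes passed, 1.03% as rises. The median log2 fold change was 0.62 over the members and 0.020 over all tested genes, and 8 members had an unadjusted p under 0.05. FL libraries lay above all controls for 5 members and below them for 1, as they did for 11.8% and 11.2% of all tested genes. MAFF rose by 1.74 ± 0.33, 3.33-fold (adjusted p = 0.0425 by edgeR), and lost its call without any 1 of the empty vector libraries or without FL replicate 1 or 2, with adjusted p from 0.139 to 0.185. With both groups of this comparison fitted alone its adjusted p was 0.349.

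JUN lay at 185, 339.9 and 44.6 CPM in the 3 FL libraries against 33.1, 32.3 and 36.1 with empty vector. FL replicate 2 held the highest JUN level of all 12 libraries and FL replicate 3 stood just above the controls. The 3 leukocyte markers summed to 3.66 CPM in FL replicate 1, 0.0738 in FL replicate 2 and 0.156 in FL replicate 3. Without FL replicate 1, the library with leukocyte markers and the steep GC trend, the difference was 2.51 (adjusted p = 0.177, edgeR). The part of these markers in the FL results was not tested. With all libraries it was 2.49 ± 0.59 with a 95% interval of 1.19 to 3.79 (adjusted p = 0.0626). FOSL1 showed the same split, with 1548, 1670.0 and 729.8 CPM in FL and 0.92 ± 0.25 (0.0683).

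JUND at 225, 287 and 163 CPM and JUNB at 109, 185 and 73.6 CPM also had replicate 3 as their lowest FL library, at 0.65 ± 0.20 (adjusted p = 0.0886) and 0.84 ± 0.32 (0.129). FOSB at 28.0, 39.9 and 27.0 CPM lay above all controls and gave 0.55 ± 0.26 (0.197). MAFK was high in FL replicate 2 alone, at 35.4, 80.9 and 36.5 CPM. FOS at 24.4, 33.8 and 29 CPM lay inside the range set by the controls but for replicate 2, and gave 0.15 ± 0.27 (adjusted p = 0.741, edgeR).

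Without FL replicate 3, 8 members were called in FL against empty vector: 7 rose and 1 fell, where 30.7% of all tested genes passed. JUN was then 2.95 (adjusted p = 0.000348), FOSL1 1.20 (0.000213) and JUND 0.83 (0.00448). Leaving out ΔTFR5 replicate 3 as well, a choice made after seeing the data, gave 7 called members (31.8% of all tested genes). Without FL replicate 1 or 2, or without any 1 empty vector library, the count was 0, where 0.031% to 0.26% passed. DESeq2 called 4 members with all libraries in place, and 12.4% of all genes to which it gave an adjusted p.

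The plot against SLNCR shows where those libraries stood. FL replicates 1 and 2 and the 3 ΔTFR4 libraries held the most SLNCR, and these 5 also held the 5 highest levels of JUN, of MAFF and of FOSL1. FL replicate 3 had 334 CPM of SLNCR and ΔTFR5 replicate 3, with 192, the least of the libraries that received it. FOS showed no such order. The part of SLNCR level in these results was not tested.

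**Figure D4:**
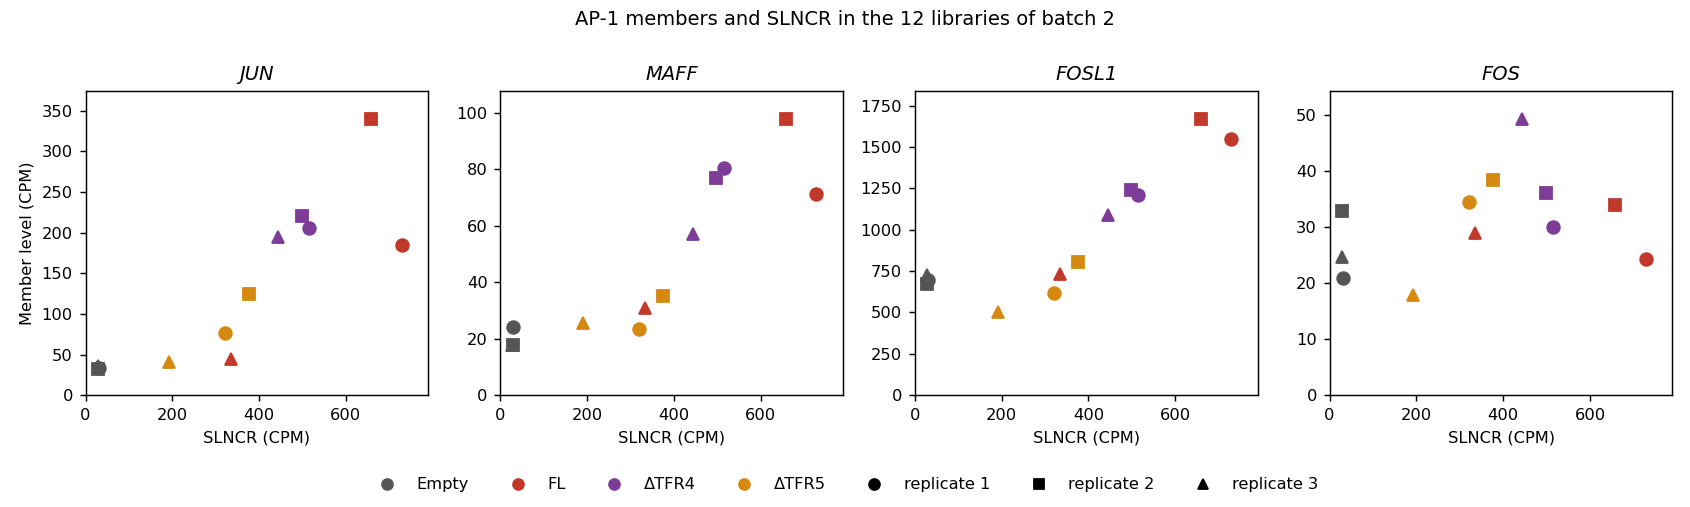
Level of JUN, MAFF, FOSL1 and FOS (y axes, CPM, linear from 0) against the level of SLNCR (x axis, CPM) in the 12 libraries of batch 2; colours mark groups and symbols replicates. FL replicate 3 (334 CPM of SLNCR) holds 44.6 CPM of JUN, beside ΔTFR5 replicate 1 (321 CPM of SLNCR) with 76.8.

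With ΔTFR5, no member rose against empty vector, and 1 fell (BATF3, above), where 10.2% of all tested genes passed, 4.68% as falls. JUN lay at 76.8, 125 and 40.4 CPM, all above the controls, and gave 1.25 ± 0.57 (adjusted p = 0.190, edgeR). FOSL1 lay at 619.8, 805 and 505 CPM, with replicates 1 and 3 below and replicate 2 above all controls, and gave -0.12 ± 0.25 with an interval of -0.65 to 0.42 (0.811). JUNB, JUND, MAFF, MAFK, FOS, FOSB and FOSL2 gave log2 values between -0.067 and 0.49. With FL replicate 3 and ΔTFR5 replicate 3 both left out, 4 members were called, 3 of them as rises, where 18.3% of all tested genes passed.

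The deletions of batch 2 were next compared with FL. No member passed with ΔTFR4 against FL, where 4.36% of all tested genes did; JUND alone had an unadjusted p under 0.05 (0.49 ± 0.20, adjusted p = 0.169), and DESeq2 called 0, where it called 10.8% of all genes. The intervals of JUN (-1.10 to 1.35) and MAFF (-0.57 to 0.78) were wide, so these values do not show that ΔTFR4 and FL acted alike. Without FL replicate 2, 1 member was called (8.11% of all tested genes). Without FL replicate 3 the count was 0 (11.4%).

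No member passed with ΔTFR5 against FL either, where 1.38% of all tested genes did, while 3 had an unadjusted p under 0.05 and DESeq2 called 3, with 8.12% of all genes. FOSL1 gave -1.03 ± 0.25 (adjusted p = 0.0584, edgeR), MAFF -1.24 ± 0.32 (0.0690), FOSL2 -0.45 ± 0.15 (0.117) and JUN -1.23 ± 0.57 (0.243). The groups overlapped for JUN, MAFF and FOSL1, where it was FL replicate 3 that lay within the range of the ΔTFR5 libraries. Without FL replicate 3, 4 members fell, where 17.9% of all tested genes passed, with FOSL1 at -1.32 (0.000375) and MAFF at -1.59 (0.000627).

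Between the deletions, ΔTFR5 libraries lay below all ΔTFR4 libraries for 7 members (FOSL1, FOSL2, JUN, JUNB, JUND, MAFF and MAFK), where 14.2% of all tested genes did so. None passed the test, where 0.453% of all tested genes passed; 7 had an unadjusted p under 0.05 and DESeq2 called 2, with 1.07% of all genes. The values were -1.35 ± 0.57 for JUN (adjusted p = 0.473 by edgeR), -1.35 ± 0.32 for MAFF (0.133) and -0.81 ± 0.20 for JUND (0.170). ΔTFR5 libraries also held less SLNCR than all ΔTFR4 libraries. With these 2 groups fitted alone 5 members were called, where 6.33% of all tested genes passed, and 2 without FL replicate 3 and ΔTFR5 replicate 3, where 0.714% passed.

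In batch 1 the changes were small and ran the other way. Against empty vector, 6 members fell with FL (FOSB, FOSL1, FOSL2, JUN, JUND and MAFK) and 0 rose, where 22.7% of all 14310 tested genes passed and 11.3% as falls. The median log2 fold change was -0.26 over the members and -0.016 over all tested genes. FL libraries lay below all controls for 6 members, as they did for 18.7% of all tested genes. With each library's GC trend removed, 0 members were called, where 2.33% of all tested genes passed, and the values of FOSL1 and JUND turned to 0.043 and 0.075. Without empty replicate 1 the count was 2 (8.17% of all tested genes), and without FL replicate 3 it was 3 (11.9%).

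**Figure D5:**
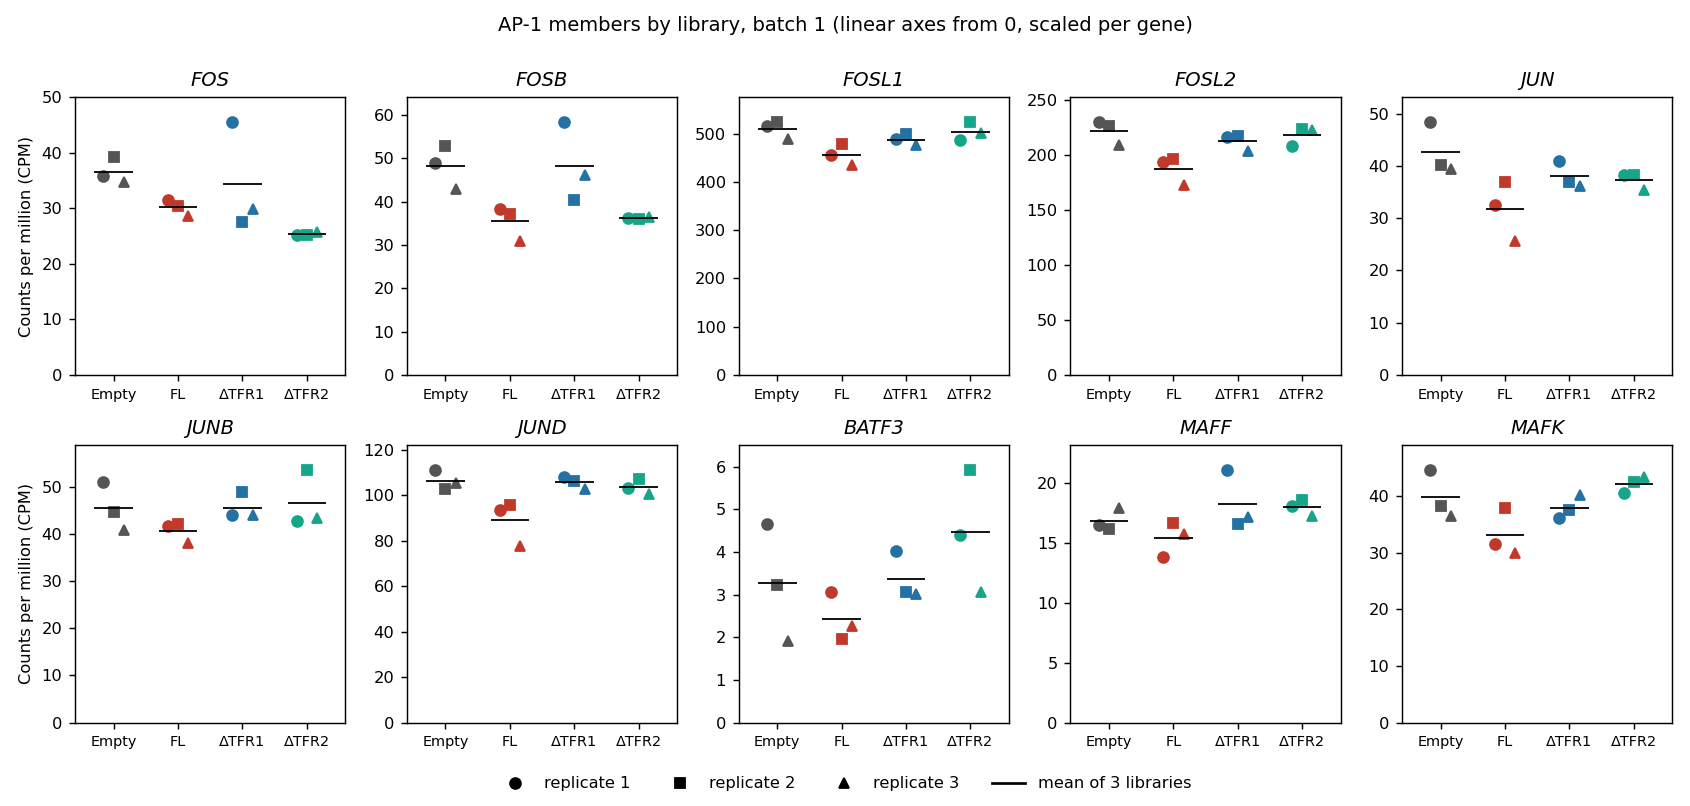
Level of each AP-1 member in CPM (y axis, linear, from 0, scaled per gene) in the 4 groups of batch 1 (x axis); symbols mark replicates 1, 2 and 3 and lines the mean of 3 libraries. FL libraries lie below all empty vector libraries for FOS, FOSB, FOSL1, FOSL2, JUN and JUND, by small amounts relative to the level.

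FOSB, a FOS protein with a long-lived splice form known from neurons, lay at 49.1, 52.8 and 43.0 CPM with empty vector and 38.4, 37.3 and 31.1 with FL. The groups did not overlap, and FOSB fell by 0.44 ± 0.11 (adjusted p = 0.00741 by edgeR, 0.128 with GC trends removed). ERCC1, which overlaps the whole of FOSB on the opposite strand, gave -0.20 ± 0.056 (0.0107). Without a known strand setting the reads of FOSB and ERCC1 cannot be told apart where they overlap. JUN lay at 48.3, 40.1 and 39.5 CPM with empty vector and 32.5, 36.9 and 25.6 with FL and fell by 0.43 ± 0.10 (0.00401). The call of JUN was lost without empty replicate 1 (0.0553) and with GC trends removed (0.0703).

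FOSL2 fell by 0.24 ± 0.05 (adjusted p = 0.00204), from 222 ± 10.8 to 188 ± 12.7 CPM (SD, n = 3), and FOSL1 by 0.16 ± 0.04 (0.0112), from 509 ± 18.5 to 456 ± 21.5. JUND fell by 0.25 ± 0.06 (0.00512 by edgeR) and MAFK by 0.27 ± 0.09 (0.0281). The libraries of MAFK overlapped, and TMEM184A, its neighbour on the opposite strand, gave -0.32 ± 0.08 (0.00486). FOS gave -0.27 ± 0.13 (0.129), JUNB -0.16 ± 0.087 (0.183) and MAFF -0.13 ± 0.11 (0.439).

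With ΔTFR1 against FL, 3 members were higher (FOSB, FOSL2 and JUND) and 0 lower, where 10.1% of all tested genes passed, 4.4% as higher. FOSB lay at 58.3, 40.5 and 46.1 CPM with ΔTFR1 and rose by 0.44 ± 0.11 (adjusted p = 0.0200), with replicate 1 highest. Its overlapping gene ERCC1 gave 0.17 ± 0.057 (0.0461, edgeR). With ΔTFR2 against FL, ERCC1 gave 0.21 ± 0.056 (0.0218), where FOSB gave 0.022. JUND gave 0.24 ± 0.064 (0.0184, edgeR) and FOSL2 0.18 ± 0.052 (0.0301). The count was 0 without FL replicate 3 (1.95% of all tested genes passed) or ΔTFR1 replicate 1 (0.152%) and with GC trends removed (0.119%). It was 1 without ΔTFR1 replicate 2 (5.43%) and 5 without FL replicate 2 (19.0%).

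With ΔTFR2 against FL, 5 members were higher (FOSL1, FOSL2, JUND, BATF3 and MAFK) and 0 lower, where 10% of all tested genes passed, 4.86% as higher. BATF3 gave the largest value, 0.87 ± 0.28 (adjusted p = 0.0441), at 4.39, 5.92 and 3.06 CPM with ΔTFR2 against 3.05, 1.96 and 2.26 with FL. Counts behind these BATF3 levels were low, and its call was lost without ΔTFR2 replicate 2, which held the highest level (0.59, adjusted p = 0.291), and without ΔTFR2 replicate 1 or FL replicate 2 or 3. MAFK gave 0.35 ± 0.088 (0.0158 by edgeR), with all ΔTFR2 libraries above all FL libraries. FOS lay lower in all ΔTFR2 than in all FL libraries, at 25.2, 25.2 and 25.7 against 31.5, 30.4 and 28.7 CPM, and gave -0.25 ± 0.14 (adjusted p = 0.237). With no filter on low counts 4 members were higher and FOS was lower, at -0.27 (0.0475, edgeR), while FOSL1 lost its call (0.0662). The count of 5 was 0 without FL replicate 3 (1.28% of all tested genes passed) or ΔTFR2 replicate 2 (0%) and with GC trends removed (0.175%). It was 1 without ΔTFR2 replicate 3 (2.83%), 2 without ΔTFR2 replicate 1 (4.62%) and 3 without FL replicate 1 (5.32%). JUND turned to -0.032 and FOSL1 to -0.012 with GC trends removed.

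These comparisons share the FL libraries, which also differ from the other groups of batch 1 in GC trend. Against empty vector, no member passed with ΔTFR1 (0.00699% of all tested genes passed; 0 members at an unadjusted p under 0.05) or with ΔTFR2 (0.014%; 2 members), and DESeq2 called 0 in both. The 2 were FOS and FOSB. FOS lay at 25.2, 25.2 and 25.7 CPM with ΔTFR2 and 35.9, 39.2 and 34.7 with empty vector, and the tight ΔTFR2 libraries stood below all controls. Its difference was -0.53 ± 0.13 with a 95% interval of -0.81 to -0.25 (adjusted p = 0.994, edgeR). FOSB gave -0.41 ± 0.11 (0.994 adjusted). With empty vector and ΔTFR2 fitted alone, or with no filter on low counts, 2 members were called, where 0.0358% and 0.0178% of all tested genes passed.

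In ΔTFR2 against ΔTFR1 no member passed, nor did any other gene (0%); FOS and FOSB again had an unadjusted p under 0.05, at -0.44 ± 0.14 and -0.41 ± 0.11, and DESeq2 called 0. ΔTFR1 replicate 1 had the highest FOS level of that group, 45.5, 27.6 and 29.9 CPM in the order of replicates. With no filter 2 members were called, and they were the only genes called in that fit (0.00889%).

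The genes around AP-1 were read from 5 lists, whose counts stand against the shares of all tested genes given above (in batch 2, 1.16% with FL, 23.9% with ΔTFR4 and 10.2% with ΔTFR5 against empty vector, and 22.7% with FL in batch 1). With GC trends removed, the share with FL in batch 1 was 2.33%, and calls of list genes in that fit are not reported here. For FL in batch 2, 6 to 5966 of all tested genes passed when 1 library was left out. Among 17 related bZIP genes, 15 were tested in batch 2, and 4 rose and 2 fell with ΔTFR4 against empty vector. One of them, ATF3, also stands in the list of other immediate-early genes and is counted in both. ATF3, a stress-induced factor that pairs with JUN, rose by 2.04 ± 0.38 (adjusted p = 0.00298 by edgeR) with ΔTFR4 and by 1.81 ± 0.38 (0.0433) with FL. JDP2, a JUN partner that represses AP-1 sites, rose by 1.29 ± 0.27 with ΔTFR4 (0.00521) and by 1.03 ± 0.27 with ΔTFR5 (0.0292). NFE2L3, a partner of small MAFs, fell by 0.85 ± 0.16 (0.00291) with ΔTFR4. MAF fell by 0.82 ± 0.19 with ΔTFR5 (0.0179, edgeR). In FL against empty vector of batch 1, 2 of 14 tested passed, NFE2L2 at 0.24 ± 0.064 (0.00960) and BACH1 at 0.24 ± 0.068 (0.0123).

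Kinases and serum response factors upstream of AP-1 formed the next list. Of 22 tested in batch 2, 1 rose and 2 fell with ΔTFR4 against empty vector, 0 passed with FL, where 6 had an unadjusted p under 0.05, and 1 fell with ΔTFR5. RPS6KA3, which encodes the kinase RSK2, fell by 0.56 ± 0.14 (adjusted p = 0.0142), MAP2K1, which encodes MEK1, fell by 0.33 ± 0.10 (0.0265 by edgeR) and BRAF rose by 0.69 ± 0.21 (0.0332). In batch 1, 5 of 21 rose and 5 fell with FL against empty vector, among them MAP2K2, which encodes MEK2, at -0.49 ± 0.090 (0.00110). Of the 6 regulators of AP-1 protein, such as ubiquitin ligases that degrade JUN, 0 passed in any comparison of batch 2 by edgeR, with an unadjusted p under 0.05 in 1 for FL, 1 for ΔTFR4 and 0 for ΔTFR5 against empty vector. In batch 1 ITCH, which encodes such a ligase, rose with FL at 0.20 ± 0.052 (0.00772).

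Among other immediate-early genes, rises outnumbered falls in batch 2 with ΔTFR4. Of 28 tested, 15 rose and 1 fell with ΔTFR4 against empty vector, with a median of 1.03 where all tested genes had 0.017. DUSP1, a phosphatase that switches off MAP kinases, rose by 1.97 ± 0.28 (adjusted p = 0.000937 by edgeR). PPP1R15A, which encodes GADD34 of the stress response, rose by 2.43 ± 0.45 (0.00311) and BTG2, an antiproliferative p53 target, by 1.58 ± 0.29 (0.00313). EGR1, a zinc finger factor induced through serum response factor, rose by 4.98 ± 1.12 (0.0121). Its levels were 23.6, 25.8 and 18.3 CPM with empty vector, 387, 560.3 and 43.4 with FL, 643, 663 and 836 with ΔTFR4 and 229.9, 434 and 23.4 with ΔTFR5. Replicate 3 was lowest with FL and with ΔTFR5 and highest with ΔTFR4.

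With FL, 6 of the 28 rose and 0 fell, with a median of 0.91, led by DUSP1 at 1.52 ± 0.28 (adjusted p = 0.0420) and PPP1R15A at 2.42 ± 0.45 (0.0425 by edgeR). Without FL replicate 3, 19 rose, in a fit where 30.7% of all tested genes passed. Without another library as few as 6 of all tested genes passed, and the counts of this list there are not reported here. With ΔTFR5 against empty vector 2 rose, NR4A2, a nuclear receptor, at 0.99 ± 0.22 (0.0150) and PPP1R15A at 1.52 ± 0.43 (0.0441). With ΔTFR5 against FL, 4 of the 28 fell, CCN2, KLF2, RHOB and CCN1, with values from -1.78 to -0.94, and from -2.17 to -1.16 without FL replicate 3. In batch 1, 3 of 25 fell with FL against empty vector and 0 rose, IER2 at -0.37 ± 0.082 (0.00351), IER5 at -0.36 ± 0.087 (0.00418) and KLF2 at -0.30 ± 0.083 (0.00961). These calls are given without removal of the GC trends that set the FL libraries of batch 1 apart.

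Genes with known AP-1 sites or AP-1 dependence did not move one way. Of 23 tested in batch 2, 5 rose and 8 fell with ΔTFR4 against empty vector, with a median of 0.15. MMP1, an interstitial collagenase whose promoter holds a classical AP-1 site, fell from 6.71 ± 0.604 to 0.558 ± 0.331 CPM (SD, n = 3), a difference of -3.58 ± 0.61 (adjusted p = 0.00206). MMP3, or stromelysin, fell from 36.5 ± 7.79 to 5.31 ± 1.28 CPM, a difference of -2.78 ± 0.52 (0.00331 by edgeR). SPP1, which encodes osteopontin, fell by 2.09 ± 0.45 (0.00605), while PHLDA1 rose by 0.86 ± 0.14 (0.00179).

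MMP1 and MMP3 were also lower with ΔTFR4 than with FL, at -2.92 ± 0.61 (adjusted p = 0.0220) and -2.09 ± 0.51 (0.0413, edgeR). Without FL replicate 3, MMP1 gave -2.15 (0.0257) and MMP3 lost its call at -1.28 (0.0711). With FL against empty vector 3 of the 23 rose and 0 fell, among them HBEGF, a ligand of the EGF receptor, at 1.54 ± 0.34 (adjusted p = 0.0496, edgeR) and the cytokine LIF at 1.19 ± 0.26 (0.0496). Without FL replicate 3, 10 rose and 6 fell, in a fit where 30.7% of all tested genes passed. As few as 6 of all tested genes passed without another library, where the counts of this list are not reported here. HBEGF fell with ΔTFR5 against FL, by 1.68 ± 0.34 (0.0336). In batch 1, 3 of 22 rose with FL against empty vector (ITGA2, CXCL8 and CD44, between 0.19 and 0.39) and 3 fell, among them TGFB1 at -0.23.

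JUN had the widest range of group means among members in batch 2, 2.61 on the log2 scale. Across its 12 libraries the genes most like JUN, among 13089 whose mean log2 CPM reached 1, were PER1 (Pearson's r = 0.997, Spearman's rho = 0.986), GADD45A (0.993, 0.972), R3HCC1L (0.991, 0.986), ZNF557 (0.991, 0.986) and ATF3 (0.988, 0.951). Of the members, JUND (0.947), JUNB (0.944) and MAFF (0.943) were nearest, FOS gave 0.554 and BATF3 -0.65. In batch 1 the member with the widest range was BATF3 (0.80), where JUNB was the nearest member at 0.753 and LOC101928034 the nearest gene at 0.887. These are descriptions of 12 libraries that share groups and transfections. Differences between groups and spread between replicates of a group both enter them, and the 2 were not told apart.

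In the genome (GRCh38, GENCODE annotation), FOSB, JUNB and JUND share chromosome 19, JUN and BATF3 share chromosome 1, and the other members lie on chromosomes of their own. JUN spans positions 58780788 to 58784327 of chromosome 1 and JUND 18279760 to 18281622 of chromosome 19, each as a single exon with no overlapping gene. MAFF spans 38200767 to 38216511 of chromosome 22, where PLA2G6 overlaps it by 4924 bases on the opposite strand. ERCC1 overlaps the whole of FOSB (7185 bases) and HOOK2 the whole of JUNB (1820 bases), both on the opposite strand. The antisense gene FLJ31356 overlaps FOSL2 by 2225 bases. Without a known strand setting, counts are uncertain over all of FOSB and JUNB and over that part of FOSL2. FOS, FOSL1 and BATF3 have no overlapping gene.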

How the data were processed

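RNA was measured by sequencing of rRNA-depleted libraries on an Illumina HiSeq, per the labels' protocols. Batch 1 holds raw counts per gene symbol as deposited by the authors. Batch 2 holds estimated counts from salmon as deposited by the authors, of which 83.66% are whole within 0.01, and these were rounded. Per the submitters' processing notes, the tools were STAR 2.7.3a, Subread 1.6.2 with featureCounts, cutadapt 2.5, FastQC 0.11.5 and DESeq2 1.24.0, and the builds GRCm38 and GRCh38, each with no role stated. Strand setting, annotation release and salmon's version were not given in the sources used here. Per the design text, 6 samples submitted with an earlier series were analysed anew, with no word on which of the 24 they are.

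Each batch was fitted apart with edgeR 4.0.16 in R 4.3.3: filterByExpr (minimum count 10, minimum total 15), TMM factors, and the robust quasi-likelihood test over all 12 libraries of a batch. This left 14310 genes in batch 1 and 18763 in batch 2, with a common dispersion whose square root was 0.0503 and 0.212. CPM uses TMM library sizes, and log2 CPM for the correlations a prior count of 2. Standard errors come from the log2 fold change and the F statistic (its square root as divisor). In batch 1, 27 symbols had been turned into dates, with no member or list gene among them. For each pair of replicates a chi-square of counts was averaged per gene, with no p-value. It ran from 1.50 to 7.12 in batch 1. In batch 2 it ran from 67.6 to 221 with FL and from 8.44 to 42.0 in the other groups. The edgeR test was also run on simulated data with the same spread in all groups and no GC trend. That setting differs from these data, so no support is drawn from it.

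All 12 pairwise comparisons within batches were made. Alternatives were DESeq2 1.42.0, its size factors, no filter, the compared groups alone, the replicate number as a block, each library's GC trend removed (lowess, span 0.3), both of these together, and each replicate left out. One more, without FL replicate 3 and ΔTFR5 replicate 3 of batch 2, was added after seeing the data. The 10 members and the 5 gene lists were chosen with earlier results of these data known. The text names all members, SLNCR, EGR1, from each list up to 4 called genes per comparison by lowest adjusted p, and the 5 genes most correlated with 1 member per batch; some genes this rule takes are not reported here. Promoters were found for 7 of 10 members in a RefSeq table of GRCh38.p14.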

Additional observations from a re-analysis of the deposited data

Results flagged for a closer look

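For 4 members, every FL library of batch 1 lay below all empty vector libraries of its batch and every FL library of batch 2 lay above all of its own. Of 12897 genes tested in both batches, 1.11% did so. The log2 differences of batch 1 and batch 2 were -0.44 and 0.55 for FOSB, -0.16 and 0.92 for FOSL1, -0.43 and 2.49 for JUN, and -0.25 and 0.65 for JUND. The differences of batch 1 passed edgeR's test (adjusted p = 0.00741, 0.0112, 0.00401 and 0.00512), and those of batch 2 did not (0.197, 0.0683, 0.0626 and 0.0886). The opposite directions were not tested against each other, since the 2 tables were counted by different methods. With GC trends removed, FOSL1 and JUND no longer ran opposite in the 2 batches, at 0.043 and 0.075 in batch 1.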

How the results depend on the processing

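The counts of called members moved with the setting. Percentages in brackets are shares of all tested genes that passed in the same fit. In FL against empty vector of batch 1 the 6 called members (22.7%) became 5 with DESeq2 (25.7%) and 0 with GC trends removed (2.33%). They became 7 with no filter (14.5%) and 2 with the replicate block and GC removal together (3.84%). For ΔTFR1 against FL the 3 became 0 with GC removed (0.119%), 0 with the groups alone (2.18%) and 0 with block and GC (0.867%). With the block they became 4 (15.6%). For ΔTFR2 against FL the 5 became 0 with GC removed (0.175%), 2 with the groups alone (5.2%) and 0 with block and GC (1.27%). The count of 0 for ΔTFR2 against empty vector became 2 with the groups alone (0.0358%) and 2 with no filter (0.0178%). For ΔTFR2 against ΔTFR1 it became 2 with no filter (0.00889%). In batch 2 the 1 call of FL against empty vector became 4 with DESeq2 and 7 without FL replicate 3 and ΔTFR5 replicate 3. For ΔTFR5 against FL the 0 became 3 with DESeq2. For ΔTFR4 against empty vector the 7 became 3 with no filter. For ΔTFR5 against empty vector the 1 became 4 without the 2 libraries. For ΔTFR5 against ΔTFR4 the 0 became 5 with the groups alone, 2 with DESeq2 and 2 without the 2 libraries. For these batch 2 settings the share of all tested genes stands with the comparison above. Counts also moved under other settings of batch 2, which are not reported here. Leaving out 1 replicate gave 2 to 6, 0 to 5 and 0 to 5 for the first 3 comparisons of batch 1 and 0 for the others. Of all tested genes, 1182 to 4064, 22 to 2752 and 0 to 2710 passed in those 3, and no more than 2 in the others. In batch 2 leaving out 1 replicate gave 0 to 8 (FL against empty vector), 0 to 1 (ΔTFR4 against FL) and 0 to 4 (ΔTFR5 against FL). It gave 3 to 5 (ΔTFR4 against empty vector), 0 to 1 (ΔTFR5 against empty vector) and 0 (between deletions). Of all tested genes, in the same order, 6 to 5966, 79 to 2220, 19 to 3480, 2309 to 2914, 440 to 1746 and 39 to 62 passed.

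Called values changed sign with GC trends removed, alone or with the block: FOSL1 to 0.043 and JUND to 0.075 (0.043 and 0.076 with the block) in FL against empty vector of batch 1, JUND to -0.012 (-0.013) in ΔTFR1 against FL, and FOSL1 to -0.012 (-0.013) and JUND to -0.032 (-0.032) in ΔTFR2 against FL. Of 1605 member values under alternatives, 1347 kept their direction and side of the threshold. Equal replicate numbers do not pair the libraries: deviations of same-numbered libraries correlated between -0.13 and 0.18 in batch 1 and between -0.14 and 0.20 in batch 2, and 6 and 4 of 12 libraries were most like their own number. With the number as a block, the calls in batch 1 were 6 for FL against empty vector (26% of all tested genes passed). They were 4 for ΔTFR1 against FL (15.6%) and 5 for ΔTFR2 against FL (15.2%). For the other comparisons of batch 1 they were 0, where no more than 0.014% passed. Counts with the block in batch 2 are not reported here. BATF3 is limited by depth in batch 1, where it lay at 1.92 to 5.92 CPM.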
